A study of Mus musculus with 10 samples.

Results

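Transmembrane mucins are membrane-anchored glycoproteins on the apical surface of epithelial cells. Of the 55487 genes in the expression table of colonic intestinal epithelial cells (IECs), 6 were taken by their gene names: Muc3, Muc3a, Muc13, Muc4, Muc1 and Muc20. All 6 had a mean of at least 1 TPM (a level scaled for gene length and for the library's total) over the 10 libraries and so passed the filter that left 12870 genes for testing. Muc20 passed only through the RhoB-/- group, where its mean was above 1 TPM while that of WT was below it.

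RNA was sequenced from IECs of 5 wild type (WT) and 5 RhoB-/- mice, both on the C57BL/6J background, with 1 library per mouse. The RhoB-/- mice lack the gene in the whole body, so RhoB was not removed from epithelium alone, and no other allele or agent is named for either group. The paper's methods describe WT mice as males bought from a supplier and RhoB-/- mice as generated at another centre. Its chronic colitis experiment names WT littermates. Neither the origin of the WT mice used for sequencing nor the sex of the RhoB-/- ones is given in the sources used here. Mice were 6 to 8 weeks old unless stated otherwise. If the sequenced WT mice were the bought ones, genotype cannot be told apart from the source of the animals. IECs were released from opened colons with EDTA and DTT, which leaves several epithelial cell types together. The comparison asks how loss of RhoB relates to gene expression in the untreated colonic epithelium.

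A transmembrane mucin carries a long extracellular domain rich in serine, threonine and proline, densely covered with O-linked glycans, then a membrane-spanning helix and a short cytoplasmic tail. Together these proteins build the glycocalyx on the microvilli of absorptive cells, beneath the gel that goblet cells secrete. Several have a tail that takes part in signalling at the membrane.

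The members lie at 3 places in the genome (GRCm38). Muc3 (chr5:137134922-137149322, minus strand) and Muc3a (chr5:137208813-137212389, minus strand) are 59.5 kb apart. Muc4 (chr16:32735886-32782391, plus strand), Muc20 (chr16:32777419-32797435, minus strand) and Muc13 (chr16:33794037-33819934, plus strand) share another chromosome, with 996.6 kb between Muc20 and Muc13. Muc1 (chr3:89229057-89233381, plus strand) stands alone.

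Promoter windows from RefSeq (GRCm38.p6, 250 bases before to 50 after each start site) matched 5 of the 6 members, the exception being Muc3a. The windows of Muc3, Muc13 and Muc4 are shown because these genes carried higher mRNA in RhoB-/- IECs, and Muc13 has 2 annotated start sites. Capitals mark motifs found on either strand. The Muc3 window is chr5:137165997-137166296 (minus strand), the Muc4 window chr16:32735636-32735935 (plus strand), the first Muc13 window chr16:33793787-33794086 (plus strand) and the second Muc13 window chr16:33794239-33794538 (plus strand).
Muc3: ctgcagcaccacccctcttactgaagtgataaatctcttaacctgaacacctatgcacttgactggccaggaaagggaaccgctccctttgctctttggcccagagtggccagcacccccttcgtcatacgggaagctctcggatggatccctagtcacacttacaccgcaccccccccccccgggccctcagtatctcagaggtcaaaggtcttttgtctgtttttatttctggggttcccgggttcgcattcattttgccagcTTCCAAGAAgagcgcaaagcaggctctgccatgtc
Muc4: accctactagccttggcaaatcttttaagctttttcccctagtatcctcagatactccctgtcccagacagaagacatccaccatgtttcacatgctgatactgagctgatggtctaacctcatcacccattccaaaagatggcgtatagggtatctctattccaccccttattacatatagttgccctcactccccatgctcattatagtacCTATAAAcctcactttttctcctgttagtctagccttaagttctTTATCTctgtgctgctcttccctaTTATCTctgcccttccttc
Muc13 first start: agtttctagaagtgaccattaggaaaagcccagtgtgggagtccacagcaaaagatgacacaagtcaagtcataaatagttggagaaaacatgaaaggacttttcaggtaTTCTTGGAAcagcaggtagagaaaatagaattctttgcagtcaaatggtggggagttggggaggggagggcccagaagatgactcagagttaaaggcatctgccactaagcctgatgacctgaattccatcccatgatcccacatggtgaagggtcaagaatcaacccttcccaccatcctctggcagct
Muc13 second start: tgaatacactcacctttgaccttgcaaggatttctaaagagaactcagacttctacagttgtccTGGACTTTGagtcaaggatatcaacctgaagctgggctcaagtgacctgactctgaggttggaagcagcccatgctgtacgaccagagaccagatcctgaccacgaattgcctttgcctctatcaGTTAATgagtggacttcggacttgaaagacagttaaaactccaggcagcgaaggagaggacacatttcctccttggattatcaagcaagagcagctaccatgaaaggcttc

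The 6 member windows were searched for 8 short motifs on both strands. The STAT motif TTCNNNGAA stood at position 15 after the Muc3 start site and at -140 of the first Muc13 start, and 8.3% of 32851 promoters of the same length held it. The HNF4 motif CAAAGTCCA stood at -186 of the second Muc13 start (0.47% of promoters) and the short HNF1 motif GTTAAT at -61 of it (7.1%). In the Muc4 window, the CDX motif TTTATNG at -37 (10.91%) overlapped the TATA box TATAAA at -36 (13.62%), and the GATA motif AGATAA stood at 7 and 31 after the start site (11.18%). Muc1, whose window is not printed, held a TATA box at -31 and the GC box GGGCGG at -91 and -49 (35.66%). The interferon-response-like motif GAANNGAAA was in none of the 6 windows and in 7.52% of all promoters. A match describes letters in the window, not a bound site.

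The targeted gene was checked first. Rhob was at 170.52, 302.77, 364.92, 333.44 and 388.71 TPM in WT replicates 1 to 5, and at 0.09, 0.10, 0.35 and 0.57 TPM in RhoB-/- replicates 1 to 4. The library labelled RhoB-/- replicate 5 held 110.87 TPM of Rhob and stood apart from its group, so the members and the list counts are given with and without it. Summed levels of 8 pan-epithelial markers were 9876 to 11635 TPM in WT and 9745 to 15461 TPM in RhoB-/- libraries, and none of these markers was called in either direction (median log2 fold change 0.28). Mitochondrially encoded genes took 17.5% to 26.5% of TPM in WT and 10.3% to 22.4% in RhoB-/- libraries.

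Of the 6 transmembrane mucins, 4 were higher in RhoB-/- IECs and 0 were lower. Calls came from limma on log2(TPM + 1) and needed both a fold change of more than 1.5 and an adjusted p under 0.05. The same rule called 5.58% of all tested genes higher and 7.13% lower. The median log2 fold change was 0.82 over the 6 members, 0.88 over the 5 whose means were at least 1 TPM in both genotypes, and -0.13 over all 12870 genes. Every RhoB-/- library lay above every WT library for 3 of the 6 members, against 5.97% of all tested genes. Without the library labelled RhoB-/- replicate 5, the number called higher was again 4 and the median over the 6 members was 0.70, and over all genes 574 were higher and 724 lower. Of the 4 calls, that of Muc3 was lost under several settings given with it. Because these are bulk libraries, more cells that express a mucin and more mRNA per cell cannot be told apart.

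**Figure D1:**
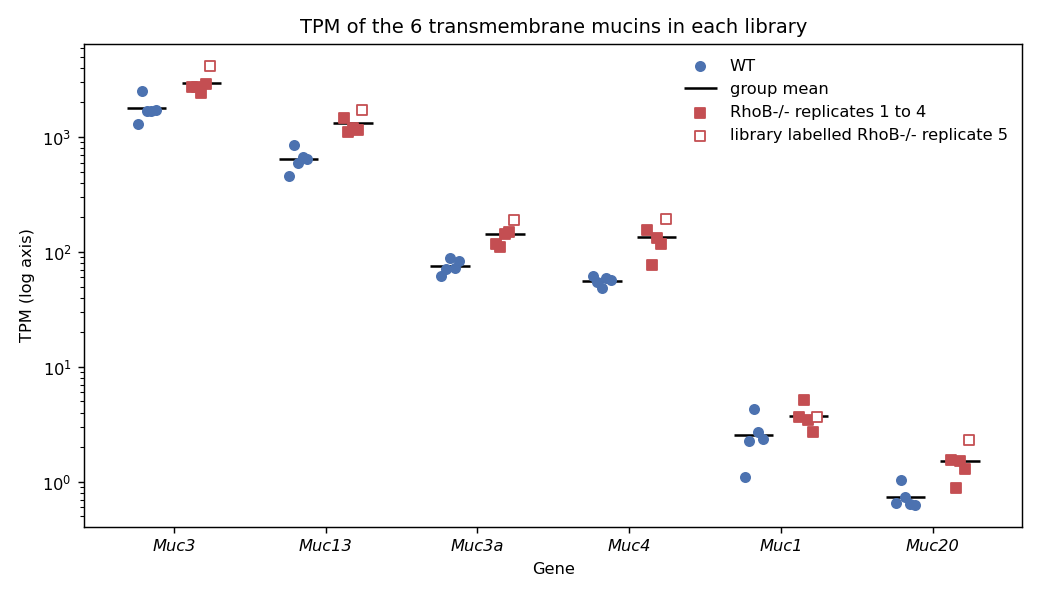
TPM (log axis) of each transmembrane mucin in each of the 10 libraries, with WT as circles, RhoB-/- as squares, the library labelled RhoB-/- replicate 5 as an open square and group means as bars. The groups are separate for Muc13, Muc3a and Muc4 and overlap for Muc3, Muc1 and Muc20.

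Muc3, a brush border mucin of absorptive cells, was the most abundant member, with the 45th highest mean of the 12870 genes in WT and the 25th in RhoB-/- IECs. Its levels were 1296, 2522, 1700, 1678 and 1710 TPM in WT replicates 1 to 5, and 2716, 2697, 2420, 2885 and 4154 TPM in RhoB-/- replicates 1 to 5. The groups overlapped, since WT replicate 2 was above RhoB-/- replicate 3, while the other 4 RhoB-/- libraries were above every WT library. Means were 1781 ± 449.0 TPM (WT) and 2974 ± 680.1 TPM (RhoB-/-), with the SD over 5 mice each. Muc3 rose by a log2 fold change of 0.75 (SE 0.19, 95% interval 0.33 to 1.16, limma adjusted p = 0.0183). Without the library labelled RhoB-/- replicate 5, the log2 fold change was 0.62 (limma adjusted p = 0.0444). Muc3 was no longer called without WT replicate 4 (0.73, limma adjusted p = 0.0540), with no filter on low TPM (0.75, limma adjusted p = 0.0775), under quantile normalization (0.57, limma adjusted p = 0.0512) or when scaled to pan-epithelial markers (0.50, a fold change below 1.5).

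Muc13, a transmembrane mucin of the apical membrane in the intestine, was second in abundance. It was at 457.2, 848.8, 599.4, 668.8 and 646.1 TPM in WT replicates 1 to 5, and at 1470, 1107, 1208, 1155 and 1725 TPM in RhoB-/- replicates 1 to 5. No RhoB-/- library reached down to the WT range. Means were 644.1 ± 140.9 and 1333 ± 260.5 TPM (SD, n = 5 each), and the rank of the mean went from 186 in WT to 79 in RhoB-/- IECs. Muc13 rose by a log2 fold change of 1.06 (SE 0.18, 95% interval 0.67 to 1.44, limma adjusted p = 0.00199), and by 0.96 without the library labelled RhoB-/- replicate 5. An annotated antisense gene, Gm15657, named for its position, overlaps 184 exonic bases of Muc13 (6.06% of them) and also rose, from 6.00 ± 0.941 to 13.7 ± 5.38 TPM (log2 fold change 1.01, limma adjusted p = 0.00715). Whether reads were counted by strand is not given in the sources used here, and without strand their reads cannot be told apart there.

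Muc3a, the neighbour of Muc3, was at 61.84, 71.66, 89.32, 72.73 and 82.66 TPM in WT replicates 1 to 5. It was at 117.12, 110.79, 143.53, 149.22 and 188.78 TPM in RhoB-/- replicates 1 to 5, so the groups did not overlap. The means of 75.6 ± 10.6 and 141.9 ± 31.0 TPM (SD, n = 5 each) gave a log2 fold change of 0.88 (SE 0.15, 95% interval 0.55 to 1.22, limma adjusted p = 0.00255), or 0.77 without the library labelled RhoB-/- replicate 5. The pair could in principle share reads, but no stretch of 75 bases was common to their annotated transcripts. Their coding transcripts are 1853 and 1881 bases long, and the best local alignment between them covered 31 columns. With both summed to 1 gene, the log2 fold change was 0.75 (limma adjusted p = 0.0164). The RefSeq start site of Muc3 lies 16.7 kb upstream of the 5′ end of its GENCODE M21 model, so the level per length of Muc3 depends on which model was counted.

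Muc4, a long mucin that binds the receptor tyrosine kinase ErbB2, had the largest log2 fold change of the 6 members. WT replicates 1 to 5 held 61.76, 54.56, 48.62, 59.15 and 56.56 TPM, and RhoB-/- replicates 1 to 5 held 155.00, 76.68, 133.03, 116.77 and 192.53 TPM. All RhoB-/- libraries were above all WT libraries, with replicate 2 nearest to the WT range. Means were 56.1 ± 4.997 and 134.8 ± 43.1 TPM (SD, n = 5 each). Muc4 rose by a log2 fold change of 1.19 (SE 0.20, 95% interval 0.75 to 1.63, limma adjusted p = 0.00213), and by 1.05 without the library labelled RhoB-/- replicate 5. The SD was 8.90% of the mean in WT and 32.0% in RhoB-/- mice.

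Tested singly, with an exact two-sided permutation test on mean log2(TPM + 1) over every assignment of the libraries to 2 groups of 5, the p was 0.00794 for Muc13, Muc3a and Muc4, the smallest this design can give. It was 0.0159 for Muc3 and Muc20 and 0.119 for Muc1. These p-values are not adjusted over genes.

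**Figure D2:**
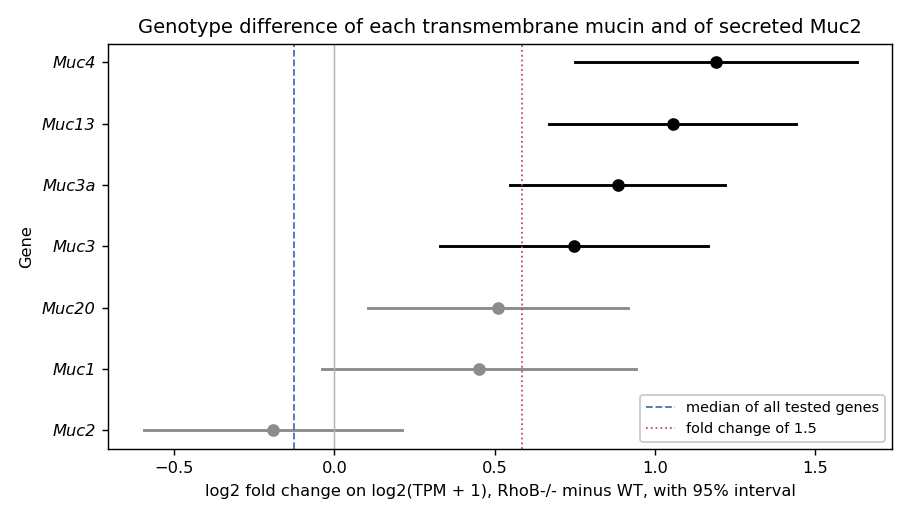
Log2 fold change of RhoB-/- over WT on the log2(TPM + 1) scale with its 95% interval from limma (n = 5 each), black where called and grey where not. The point estimates of the 4 called members lie between 0.75 and 1.19, right of the dotted line at a fold change of 1.5, and the dashed line marks the median of -0.13 over all tested genes.

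Muc1 and Muc20 were scarce in both genotypes. Muc1, whose cytoplasmic tail is phosphorylated and joins signalling complexes, was at 1.09, 2.27, 4.31, 2.70 and 2.35 TPM in WT replicates 1 to 5, and at 3.63, 5.13, 3.43, 2.69 and 3.65 TPM in the RhoB-/- replicates. The groups overlapped, and the log2 fold change of 0.45 (SE 0.22, 95% interval -0.04 to 0.94, limma adjusted p = 0.166) did not pass the test. It was 0.45 again without the library labelled RhoB-/- replicate 5 (limma adjusted p = 0.237). A fold change above 1.5 lay within that interval.

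Muc20, a mucin that binds the hepatocyte growth factor receptor Met, was at 0.66, 1.03, 0.74, 0.64 and 0.63 TPM in WT replicates 1 to 5, and at 1.54, 0.88, 1.53, 1.30 and 2.31 TPM in the RhoB-/- replicates. Only WT replicate 2 exceeded any RhoB-/- library, namely replicate 2. The log2 fold change was 0.51 (SE 0.19, 95% interval 0.10 to 0.92, limma adjusted p = 0.0702) and was not called. The ratio of mean TPM was 2.04, and the added 1 TPM compresses the log2 value at these levels, which was 0.90 with 0.1 TPM added instead (limma adjusted p = 0.0581). Without RhoB-/- replicate 2, the log2 fold change was 0.61 (limma adjusted p = 0.0278), and without the library labelled RhoB-/- replicate 5 it was 0.41 (limma adjusted p = 0.123). Since Muc20 was tested only because of its RhoB-/- level, these values are no support for a difference.

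The gene models of Muc4 and Muc20 overlap by 4973 bases on opposite strands. Their exons share 627 bases, which is 15.57% of the exonic bases of Muc20 and 5.33% of those of Muc4. Muc4 exceeded Muc20 by 53.0- to 93.6-fold in WT and by 83.3- to 100.7-fold in RhoB-/- libraries. If reads were counted without strand, those of the shared exons cannot be assigned to either gene, and the Muc20 level is uncertain.

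**Figure D3:**
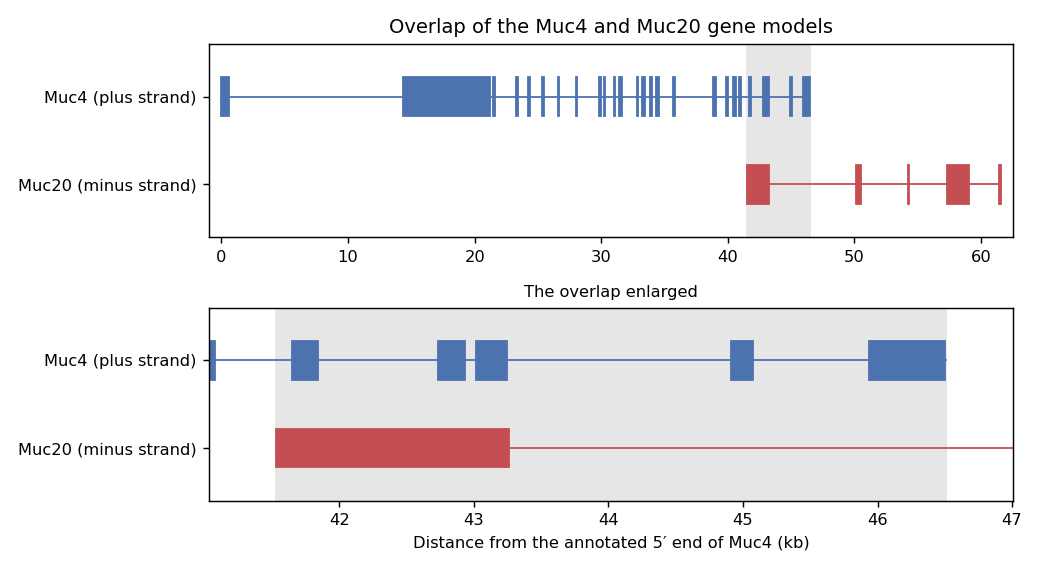
Merged exons (boxes) of Muc4 and Muc20 against the distance in kb from the annotated 5′ end of Muc4, with the overlap shaded in the upper panel and enlarged in the lower one. Muc4 spans 0 to 46.51 kb with 27 exons, Muc20 spans 41.53 to 61.55 kb with 5, and the terminal exon of Muc20 covers 3 exons of Muc4.

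In sum over the 6 genes, the transmembrane mucins reached 1878 to 3500 TPM in WT libraries (median 2482) and 3910 to 6267 TPM in RhoB-/- libraries (median 4310). The highest sum was that of RhoB-/- replicate 5, and the groups did not overlap with or without that library, the other RhoB-/- sums reaching 4463 TPM. Muc3 made up 69.3% ± 1.68 of the sum in WT and 64.7% ± 3.08 in RhoB-/- mice (SD, n = 5 each). Muc13 made up 25.2% ± 1.18 and 29.2% ± 2.63. The share of Muc4 was 2.30% and 2.92%, that of Muc3a 3.05% and 3.11%, and Muc1 with Muc20 added 0.130% and 0.116%. The ratio of Muc3 to Muc13 was 2.51 to 2.97 in WT and 1.85 to 2.50 in RhoB-/- libraries. The groups nearly touched, at 2.509 in WT replicate 4 and 2.499 in RhoB-/- replicate 4, and the ratio was not tested.

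**Figure D4:**
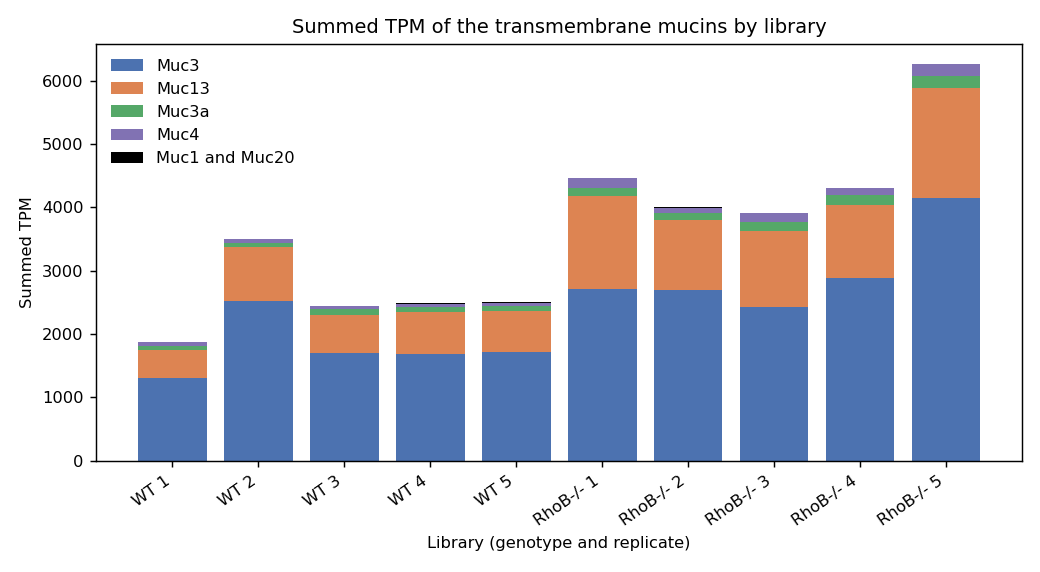
Summed TPM of the 6 transmembrane mucins in each library, stacked by gene. Muc3 and Muc13 fill most of each bar, the WT bars end between 1878 and 3500 TPM and the RhoB-/- bars between 3910 and 6267 TPM, the highest being replicate 5.

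Among the secreted mucins, Muc2, which forms the colonic mucus gel and comes from goblet cells, averaged 4981 ± 1239 TPM in the WT and 4294 ± 628.6 TPM in the RhoB-/- group (SD over 5 mice each), with a log2 fold change of -0.19 (SE 0.18, 95% interval -0.59 to 0.21, limma adjusted p = 0.474). Summed transmembrane mucins per Muc2 were 0.312 to 0.741 in WT and 0.861 to 1.46 in RhoB-/- libraries. Muc5ac and Muc5b stayed at or below 0.01 TPM and Muc19 at or below 0.10 TPM in every library. Muc6 ranged from 0.72 to 2.50 TPM (WT) and from 0.16 to 0.66 TPM (RhoB-/-), with a mean under the filter. Of the other transmembrane mucins listed, Muc12, Muc17 and Muc21 were not found under these names, and Muc15 was listed at 0 in every library. Cd164 (101.7 and 107.9 TPM, log2 fold change 0.08) and Muc16 (0.966 and 2.22 TPM, log2 fold change 0.69, limma adjusted p = 0.156) were tested and not called, Muc16 only because of its RhoB-/- level. Emcn at 0.05 TPM or less and Mcam at 0.90 TPM or less were under the filter.

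The libraries did not deviate in the same way for every member. RhoB-/- replicate 5 was the highest of its group for 5 of 6 members, all but Muc1, and RhoB-/- replicate 2 was the lowest for 4. WT replicate 1 was the lowest WT library for Muc1, Muc3, Muc3a and Muc13 and the highest for Muc4. Deviations from the genotype means on log2(TPM + 1) had a Pearson r of 0.88 between Muc3 and Muc13 and 0.81 between Muc4 and Muc20. Both genes of a pair come from the same 10 libraries, so differences between libraries in depth or cell makeup can enter r. Between Muc3 and Muc3a r was 0.52, and between Muc1 and Muc4 it was -0.42. These are descriptions only.

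By the same measure, the tested genes most like each member were named without regard to function. For Muc3 they were Parp12 (r = 0.99), Prkcd (0.98) and Synpo (0.97), and for Muc13 Nipa2, Ubl3 and Tnfrsf21 (0.97 each). Muc3a was most like Myo5b (0.97), Por (0.97) and Abcg2 (0.96), and Muc4 most like Plek2, Sh3bp1 and Adss (0.95 each). Muc20 went with Snx30, St14 and Il10rb (0.96 each), and Muc1 with Hmgn3 (0.88), Gfod1 (0.87) and Vaultrc5 (0.86). These are the highest r among 12870 genes over 10 libraries, and such a choice alone favours high values. Being like a member within the genotypes did not carry over to the genotype difference in each case, since Nipa2 had a log2 fold change of 0.02 and Parp12 one of 1.89.

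Genes whose products meet the mucins at the membrane or cut them were listed as partners and shedding enzymes. Of 20 tested, 1 rose and 1 fell, against 5.58% and 7.13% of all tested genes, with a median log2 fold change of 0.21. Slc9a3r1, which encodes the apical PDZ scaffold NHERF1, rose from 185.6 to 310.4 TPM (log2 fold change 0.72, limma adjusted p = 0.0124). Mmp14, a membrane-bound metalloprotease, fell from 23.1 to 13.5 TPM (log2 fold change -0.75, limma adjusted p = 0.00678). The most abundant of the list were the galectin Lgals3 (log2 fold change 0.34, limma adjusted p = 0.145) and Ctnnb1 (0.43, limma adjusted p = 0.0293), the latter below the fold change required. Without the library labelled RhoB-/- replicate 5, both calls held, and Icam1 was the gene that entered the list's test only through its RhoB-/- level.

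The sugars of mucins are built by the enzymes of O-glycosylation. Of 22 tested of 24 listed, 4 were higher and 2 lower in RhoB-/- IECs, with a median log2 fold change of 0.01. The shares over all tested genes were 5.58% higher and 7.13% lower. The sialyltransferases St3gal1 (5.77 to 16.8 TPM, log2 fold change 1.35, limma adjusted p = 0.00224) and St3gal4 (181.6 to 426.9 TPM, 1.23, limma adjusted p = 0.000377) and the branching enzyme Gcnt3 (51.7 to 99.7 TPM, 0.93, limma adjusted p = 0.000879) rose. B3gnt7, which extends glycan chains, fell from 137.0 to 48.7 TPM (-1.43, limma adjusted p = 0.00159). Named after their values were seen, the other called genes were the fucosyltransferase Fut2 (0.83, limma adjusted p = 0.0144) and the core 3 enzyme B3gnt6 (-0.71, limma adjusted p = 0.0127). The counts without the library labelled RhoB-/- replicate 5 were again 4 and 2. St6galnac6, the second most abundant of the list in RhoB-/- IECs, was at 392.4 and 392.3 TPM.

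Among 24 regulators linked to mucin transcription, 2 were higher and 3 lower, with a median log2 fold change of 0.03. Of all tested genes, 5.58% were higher and 7.13% lower. The ETS factor Etv4 (log2 fold change -1.24, limma adjusted p = 0.00206), the forkhead factor Foxa2 (-0.84, limma adjusted p = 0.00954) and the Notch target Hes1 (-0.68, limma adjusted p = 0.0234) fell. Irf1, named after its values were seen, rose by 0.66 (limma adjusted p = 0.0221). Without the library labelled RhoB-/- replicate 5, 1 was higher and 2 were lower, and neither Hes1 (-0.66, limma adjusted p = 0.0554) nor Irf1 (0.60, limma adjusted p = 0.0572) was called. Elf3 (0.28) and Klf4 (0.31), the most abundant of the list, were not called.

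The study's authors count Muc3 and Muc4 among goblet cell signature genes. Surface colonocytes were followed with a list of 18 markers. Of these, 12 were higher and 0 lower in RhoB-/- IECs (median log2 fold change 0.998), against 5.58% and 7.13% of all tested genes. The markers were chosen with earlier results of these data known, so this count is a description. Among the higher ones were Saa1 (2.49), the sodium-proton exchanger Slc9a3 (2.15), Lypd8 (1.65) and Tmigd1 (1.58). Car1, the most abundant marker in both genotypes, had a log2 fold change of 0.39 (limma adjusted p = 0.203). Named after their values were seen, Dpp4 (-0.45), Cyp2c55 (-0.29) and Guca2a (-0.03) were below 0 and not called. The summed level of the 18 markers was 21200 to 32526 TPM in WT and 39049 to 63612 TPM in RhoB-/- libraries, the highest again in replicate 5. Without that library, 11 markers were higher and 0 lower (median 0.90), and the highest RhoB-/- sum was 49134 TPM. Summed transmembrane mucins per summed surface colonocyte markers were 0.0958 ± 0.0221 in WT and 0.0962 ± 0.0122 in RhoB-/- mice (SD, n = 5 each), and 0.0956 ± 0.0140 in the other 4 RhoB-/- mice without replicate 5. Car1 (12756 TPM in WT and 17151 TPM in RhoB-/- IECs) and Lypd8 (5179 and 15941 TPM) were the most abundant of these markers. The ratio therefore rests largely on these genes and depends on which markers are listed. The part of surface colonocyte number in the mucin result was not tested.

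Other cell types were followed with their own lists. Over all tested genes, 5.58% were higher and 7.13% lower. Of 18 goblet cell genes, 5 were higher and 2 lower (median log2 fold change 0.13). Their summed levels were 14333 to 16421 TPM in WT and 20432 to 24206 TPM in RhoB-/- libraries. The largest rises were those of Ang4 (4.53), Retnlb (3.96), Clca1 (1.87) and Fcgbp (0.96). Muc2 (-0.19) and Zg16 (0.05), the most abundant of the list, were not called. Named after their values were seen, Ern2 (-0.85) and Creb3l1 (-0.76) were the lower ones. Crypt stem markers were lower for 4 of 10 and higher for 0 (median -0.55), and proliferation markers lower for 5 of 15 and higher for 0 (median -0.60). Enteroendocrine and tuft markers were lower for 4 of 7 tested and higher for 1 (median -0.69). The lower ones were the enteroendocrine genes Pyy (-1.26), Gcg (-1.04), Chgb (-0.84) and Chga (-0.69). The tuft marker Trpm5 was higher (0.78), and the tuft marker Dclk1 (0.61) was not called. Chga and Dclk1 were named after their values were seen. Without the library labelled RhoB-/- replicate 5, 4 goblet cell genes were higher and 2 lower, 4 crypt stem markers were lower, 1 proliferation marker was lower, and 3 enteroendocrine and tuft markers were lower and 0 higher.

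Non-epithelial markers were scarce but differed too. The 18 leukocyte markers summed to 12.3 to 24.2 TPM in WT and 55.2 to 75.2 TPM in RhoB-/- libraries, or 55.2 to 66.7 TPM without replicate 5. Of them 9 did not pass the filter and Cd68, Cd8a and Lyz2 passed only through the RhoB-/- group. Of the 6 with means of at least 1 TPM in both genotypes, 5 were higher and 0 lower, against 5.58% and 7.13% of all tested genes. Without the library labelled RhoB-/- replicate 5, again 5 were higher. Stromal and endothelial markers, of which 3 of 12 were tested and 1 was higher, summed to 6.20 to 8.88 TPM in WT and 8.79 to 38.95 TPM in RhoB-/- libraries, with the highest value in replicate 5 and 18.7 TPM the highest without it. No gene of the cell type lists was at 0 in every library. The part of these cells in the mucin result was not tested.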

How the data were processed

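Colonic IECs of 5 WT and 5 RhoB-/- mice were profiled by paired-end RNA-seq (TruSeq kit, 150 bp reads). Trimming used SeqPrep and Sickle, alignment HISAT2 and assembly StringTie, and the authors deposited gene levels in TPM from RSEM. GRCm38.p6 and edgeR also stand in the submitters' processing notes. Tool versions, the annotation release and strand-aware counting are not given in the sources used here. TPM keeps no read depth, so the depth is unknown and no counting interval is given.

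From the deposited TPM, log2(TPM + 1) was computed, and the 12870 genes averaging 1 TPM or more were fitted with limma 3.58.1 (R 4.3.3, lmFit and eBayes with trend), with genotype as the only term and Benjamini-Hochberg adjustment over all of them. A call needed an adjusted p below 0.05 and a fold change above 1.5. Likeness of genes was Pearson's r of deviations from the genotype means. Single members were tested by exact permutation. Named genes were the members, Rhob, up to 4 called genes with the largest absolute log2 fold change and up to 2 most abundant genes of each list, and the 3 genes most like each member. One gene that this rule names is not reported here. Members and lists were chosen with earlier results of these data known. Replicates are different mice, so p-values weigh the difference between groups against the spread between mice. They do not separate genotype from the source of the animals. Alternatives are given in the closing section. Gene models came from GENCODE M21 and promoters from RefSeq.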

Additional observations from a re-analysis of the deposited data

Results flagged for a closer look

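In groups of 5 libraries, 8 of 118 gene-and-genotype or summed values had 1 library far from the other 4, with a gap above 0.71 of the group's whole range. Chance gives about 1 in 20 such groups. For 5 of them the library was RhoB-/- replicate 5. In that library Muc3 was at 4153.95 TPM, the sum of the 6 transmembrane mucins was 6266.7 TPM, Rhob was at 110.87 TPM, the sialyltransferase St3gal1 was at 28.47 TPM and the collagen gene Col3a1 was at 8.22 TPM. Muc3 made up 66.3% of that sum, so the flags of Muc3 and of the sum are not separate. WT replicate 2 stood above its group for Muc20 at 1.03 TPM and for St6galnac6 at 517.69 TPM. WT replicate 1 stood apart for Retnlb at 297.51 TPM.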

How the results depend on the processing

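Muc4 and Muc13 were called higher in all 20 alternatives run for them, with log2 fold changes of 0.94 to 1.38 and 0.81 to 1.18. Muc3a was called higher in every alternative that kept it as a gene of its own (0.64 to 1.01). The sum of Muc3 and Muc3a was called higher too. Muc1 was called in 0 of 19 (0.28 to 0.63). Muc3 was lost with no filter on low TPM (0.75, limma adjusted p = 0.0775), under quantile normalization (0.57, limma adjusted p = 0.0512), when scaled to pan-epithelial markers (0.50, a setting chosen after seeing the data, with a fold change below 1.5) and without WT replicate 4; leaving out 1 library at a time gave 0.62 to 0.88. Muc20 was called when recentred on the median (0.64, limma adjusted p = 0.0358), under quantile normalization (0.62, limma adjusted p = 0.0170) and without RhoB-/- replicate 2; leaving out 1 library gave 0.41 to 0.61, and all 19 alternatives 0.38 (scaled to pan-epithelial markers) to 0.90 (0.1 TPM added). The cause was not tested. At a mean TPM of at least 5, Muc1 and Muc20 had no value. Members called higher numbered 3 to 5 and members called lower 0 throughout.

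Over all genes, 718 were higher and 918 lower. The split was 949 and 469 when recentred, 845 and 581 under quantile normalization, 671 and 1426 without mitochondrial genes and 498 and 2722 when scaled to pan-epithelial markers, where the median log2 fold change was -0.35. The number called lower was 548 at a mean TPM of at least 5 and 1734 with no fold change threshold. Leaving out 1 library gave 574 to 791 higher and 614 to 1347 lower.

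Replicate numbers name different mice, and deviations of same-numbered libraries correlated at -0.09 to 0.07. With the replicate block, Muc3 stayed at 0.75 (limma adjusted p = 0.0265), the 4 members were again called, and 715 genes were higher and 812 lower. Of the 5 numbers, only number 3 had its highest correlation between libraries of the same number. Depth is unknown, which limits what can be said of Muc1 and Muc20. List counts without the library labelled RhoB-/- replicate 5 were added after seeing the data.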
